A study of Mus musculus with 6 samples.

Results

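The genes examined here act from the end of G2 phase to the separation of the daughter cells, and they were followed in hematopoietic stem cells (HSCs) of mice labelled as wild type (WT) or knockout (KO) for *Med23*, which encodes a subunit of the Mediator complex. The members were chosen by name, as genes with a known role in mitosis or in the G2/M transition, and not from their values in a comparison. Earlier results of these data were known at that time. All 48 members were found among the 34745 genes of the count table. They were sorted into 7 roles, from the switch that starts mitosis to the structure of the chromosomes.

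Bulk RNA-seq was carried out on bone marrow HSCs of adult C57BL/6 mice, with 3 samples in each of 2 groups. The WT group carried floxed *Med23* alleles without Cre, and the KO group carried the same floxed alleles together with the *Mx1-cre* transgene. *Mx1-cre* is driven by an interferon-inducible promoter that the study switched on with poly(I:C), so that deletion is not restricted to HSCs and the inducer itself acts on these cells. The time between injection and sorting is not given for these libraries in the sources used here. HSCs were sorted as CD150+CD34-CD48- cells of the lineage-negative, Sca1-positive, cKit-positive (LSK) fraction. The labels name SMART-Seq v4 amplification of full-length cDNA, whereas the methods name a TruSeq kit. Libraries are listed below in the order of their replicate numbers. Counts summed over all genes to 4750410, 8131344 and 3537269 for WT and to 4760545, 5281232 and 5132601 for KO. The labels do not say that the samples came from separate animals, so all p-values measure the spread between these samples.

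*Med23* itself (ENSMUSG00000019984, chromosome 10 from 24869986 to 24913681, GRCm38) was at 47.6, 70.8 and 24.1 CPM in WT and at 31.6, 29.8 and 36.8 CPM in KO. CPM are counts scaled to library size, with the TMM correction for library composition. The library labelled WT replicate 3 was thus lower than every library labelled KO, and the groups overlapped. The log2 fold change of KO over WT was -0.54 (standard error 0.41, adjusted p = 0.99, edgeR), and it was -0.85 without the library labelled WT replicate 3 and -0.13 without WT replicate 2. Reads were counted over the whole gene, so reads from the deleted exons were not separated from the rest.

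The HSC label was compared with marker genes. All 18 HSC markers had reads in every library, and *Kit*, which encodes the cKit receptor, was the most abundant of them, at 850.1, 937.0 and 796.0 CPM in WT and 720.2, 693.0 and 570.0 CPM in KO. In all 3 KO libraries *Kit* was lower than in any WT library, and so was *Ly6a*, which encodes Sca1, at 216.0, 152.0 and 205.0 CPM in WT and 103.0, 81.4 and 151.0 CPM in KO. *Slamf1*, which encodes CD150, was at 96.8, 90.9 and 21.0 CPM in WT and 37.3, 58.2 and 27.5 CPM in KO. Its groups overlapped, and the library labelled WT replicate 3 was the lowest of all. Of the 18 markers 4 (22.2%) were lower in every KO library, as were 6.15% of all genes tested, and 1 was higher in every KO library, as were 6.25% of all genes tested. None passed the threshold with edgeR. The list summed to 4142, 4653 and 4388 CPM in WT and 4226, 4369 and 4135 CPM in KO. *Cd48*, whose protein was absent from the sorted cells, had 10, 28 and 0 counts in WT and 0 in each KO library. *Cd34* RNA was present in all 6 libraries, at 296.0, 360.1 and 343.0 CPM in WT and 519.7, 384.0 and 414.0 CPM in KO, although the sort was for cells without the CD34 protein. Of 15 lymphocyte markers, 7 had no read in any library, *Cd3e* and *Pax5* among them, and the list summed to between 80.2 and 115.0 CPM per library, with *Cd79b* the most abundant. The 10 markers of mature granulocytes summed to 13.2 CPM or less in every library.

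Several libraries stood apart in other ways. The Y-linked genes *Ddx3y*, *Kdm5d*, *Uty* and *Eif2s3y* summed to 1036, 1855 and 1 counts in WT and to 1529, 1606 and 0 counts in KO, so that replicate 3 of both groups lacked Y-linked reads. *Xist*, which is transcribed from the inactive X chromosome, was at 6.15, 13.3 and 1489 CPM in WT and at 1.62, 20.2 and 1589 CPM in KO. By these genes both replicate 3 libraries have the pattern of female cells and the other 4 that of male cells; the sex of the mice is not given in the sources used here. Markers of granulocyte-monocyte progenitors differed too, most of all in KO replicate 3. *Mpo*, which encodes myeloperoxidase, was at 175.0 CPM there and at 4.72 CPM or less in the other 5 libraries. All 12 genes of that list had reads in KO replicate 3, whereas 3 or 4 of them were at 0 in each other library. The list summed to 459.9, 487.0 and 407.0 CPM in WT and 697.0, 644.0 and 1022.0 CPM in KO. Its most abundant gene, *Calr*, was at 344.0, 287.0 and 244.0 CPM in WT and 275.0, 272.0 and 345.0 CPM in KO, and without it the sums were 116.0, 199.8 and 163.0 CPM in WT and 421.0, 372.0 and 677.0 CPM in KO. Of 7 genes tested 2 were higher in every KO library, as were 6.25% of all genes tested: *Prtn3*, which encodes proteinase 3, at 83.0, 141.0 and 86.5 CPM in WT and 305.0, 307.0 and 355.0 CPM in KO (log2 fold change 1.63, adjusted p = 0.065, edgeR), and *Irf8*, a myeloid transcription factor, at 3.49, 23.6 and 5.25 CPM in WT and 89.1, 34.0 and 54.0 CPM in KO (log2 fold change 2.41, adjusted p = 0.47, edgeR). The 16 skeletal muscle genes summed to 231.0, 162.0 and 409.0 CPM in WT and 8.51, 23.1 and 8.90 CPM in KO, led by *Myh3* at 58.0, 42.5 and 102.0 CPM in WT and 0 in KO. Of 12 tested, 11 were lower in every KO library, as were 6.15% of all genes tested, and 3 passed the threshold with edgeR, as did 0.0719% of all genes tested. The part of these differences in the results on mitotic genes was not tested, and values without a library are given where leaving it out moves the result of a named member strongly.

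As background, entry into mitosis is driven by the kinase CDK1 with cyclins A and B, and the genes of the program are transcribed in a wave late in the cycle under FOXM1, B-MYB and the MuvB complex. Between cycles the DREAM complex represses the same genes through the cell cycle homology region (CHR) of their promoters. Adult HSCs are mostly quiescent, so their mitotic transcripts would be few and come mainly from the small share of cells that are cycling. Poly(I:C) and interferon can bring quiescent HSCs into cycle.

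Most mitotic genes were lower in KO than in WT HSCs, but no single member passed the threshold with edgeR, and only *Kif2c* did with DESeq2. Over all 48 members, the mean of log2(CPM + 1), used as a score of each library, was 4.07, 3.61 and 3.73 in WT and 2.94, 2.78 and 3.49 in KO. The score was 3.80 ± 0.23 in WT and 3.07 ± 0.38 in KO (SD, n = 3), a difference of -0.73. Each KO library was below each WT library, with KO replicate 3 close to the lowest WT library. The mean CPM was lower in KO for 37 of the 48 members and higher for 11. In bulk RNA, fewer cycling cells and less RNA of these genes per cycling cell cannot be told apart. The part of RNA from cells other than HSCs was not tested.

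With edgeR, 12513 genes of the whole table had enough counts to be tested, among them 43 members. At an adjusted p under 0.05, 9 genes passed (0.0719%) and none of the members did, the smallest adjusted p among members being 0.21 for *Kif2c*. At an unadjusted p under 0.05, 4 members were lower in KO, where 2.77% of all genes tested were, and 0 members were higher, where 2.94% were. Other tools called 1 member with DESeq2 (0.783% of all genes), *Kif2c*, and 0 members with limma on log2(FPKM + 1) (0.126%) and with voom and sample quality weights (0.0%). Of the members tested, 33 were lower and 10 higher, that is 76.7% lower against 50.5% of all genes tested. Their median log2 fold change was -0.61 (quartiles -1.13 and -0.07), against -0.01 over all genes tested. It was also -0.61 with *Kif2c*, which had no reads in KO, set to its bound. With no filter on low counts all 48 members entered, and 37 of them, or 77.1%, were lower, against 49.1% of all genes.

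In 9 members every KO library was below every WT library. This was seen in 6.15% of all genes tested and in 20.9% of the members tested. The members were measured in the same 6 libraries, so shares of members are not counts of independent observations. In 1 member, *Plk4*, every KO library was above every WT library, which was seen in 6.25% of all genes tested. For 3 samples against 3, an exact two-sided permutation test of a gene cannot go below p = 0.1, and each of these 10 members is at that limit. The members also varied more between replicates than other genes, with a median SD within groups of 0.76 on the log2 scale against 0.48 over all genes tested. They were also lower in level, with a median of 13.4 CPM against 38.3 CPM, and these SDs were not matched for level. Their median 95% interval reached 1.44 to either side of the log2 fold change, against 0.93 for all genes tested. At this precision, a change of the size of the median was not detectable in most single members.

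**Figure D1:**
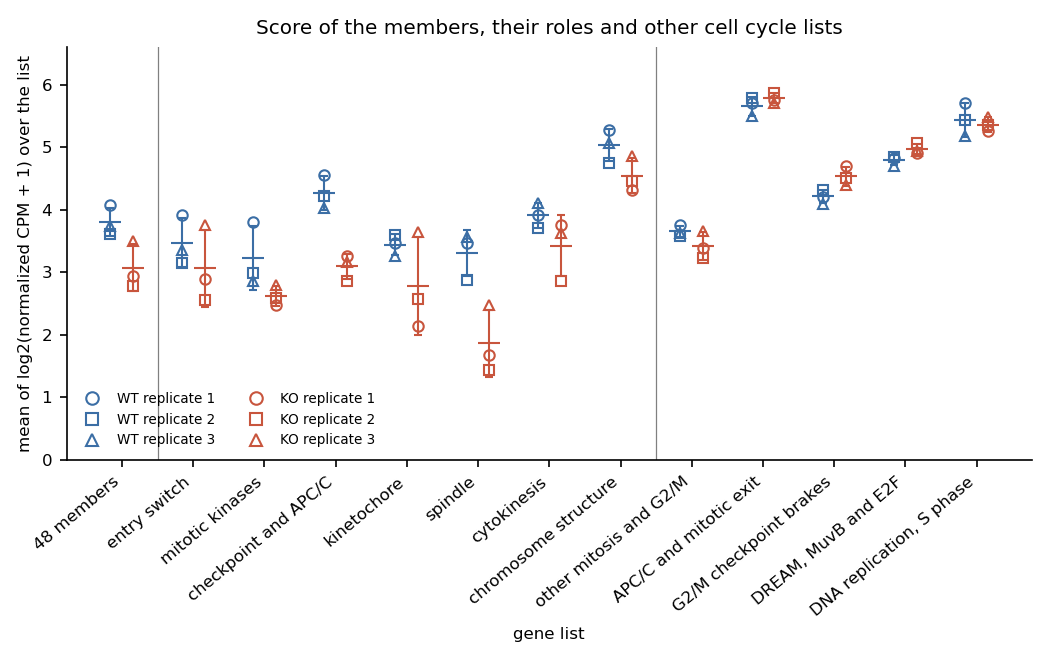
Mean of log2(TMM-normalized CPM + 1) over each gene list (vertical axis) in each library, for the 48 members, their 7 roles and 5 other cell cycle lists; open symbols are libraries, with the replicate given by shape, and bars show the group mean and SD (n = 3). The KO libraries lie below the WT libraries for the 48 members, 2.94, 2.78 and 3.49 against 4.07, 3.61 and 3.73, and KO replicate 3 is the highest KO library.

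The gap between the groups was not the same in all KO libraries. Set against the WT mean, the median log2 ratio over the members was -0.84 in KO replicate 1, -1.05 in KO replicate 2 and -0.06 in KO replicate 3, whereas the same median over all genes tested was between 0.04 and 0.05 in these libraries. KO replicate 3 was the highest KO library for 24 of the 48 members, and KO replicate 2 was the lowest of all 6 libraries for 21. Without KO replicate 3, the library with by far the most *Mpo* reads, the median log2 fold change was -1.16 and 39 of 45 members tested were lower. In that fit 13 members were lower at an unadjusted p under 0.05, where 3.26% of all genes tested were. Without KO replicate 2 the median was -0.51, and 7 members were lower at an unadjusted p under 0.05, where 2.62% of all genes tested were. Without both samples numbered 3 the median was -1.01. Without the library labelled WT replicate 3, which went against its label at *Med23*, the median was -0.56, 33 of 46 members tested were lower, and 5 were lower at an unadjusted p under 0.05, where 3.13% of all genes tested were, and 1, *Plk4*, was higher, where 3.80% were. Without WT replicate 1 the median was nearest to 0, at -0.48, 30 of 45 members tested were lower, 3 were lower at an unadjusted p under 0.05, where 2.68% of all genes tested were, and 1, *Smc4*, was higher, where 3.67% were. *Cdc25b* and *Ncaph* were not among these 3. The score difference was -0.59 without KO replicate 2, -0.60 without WT replicate 1, -0.77 without the library labelled WT replicate 3 and -0.95 without KO replicate 3. The direction of the median and of the score was the same as with all 6 libraries.

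The WT libraries also differed among themselves. WT replicate 1 was the highest of all 6 libraries for 18 members and WT replicate 3 for 11, and WT replicate 2 was the lowest WT library for 23 members. As a share of all counts, the 48 members took 0.13, 0.0968 and 0.0994% in WT and 0.0821, 0.0724 and 0.103% in KO. Summed over members, this came to 1268, 967.0 and 1087 CPM in WT and 792.0, 696.0 and 1069 CPM in KO. On this sum, to which abundant members contribute most, KO replicate 3 was above WT replicate 2, and the log2 difference between the groups was -0.39.

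Levels per transcript length were low. The median member had a mean of 2.23 FPKM over the 6 libraries, against 6.72 FPKM over all genes tested. *Bub3* stood far above the other members at 91.5 FPKM, followed by *Ccnb2* at 13.2, *Smc4* at 11.5, *Cdc20* at 11.4 and *Incenp* at 11 FPKM. *Bub3* takes part in the spindle checkpoint, *Ccnb2* encodes cyclin B2, *Smc4* a condensin subunit, *Cdc20* the activator of the anaphase-promoting complex, and *Incenp* the scaffold of the chromosomal passenger complex. At the low end were *Cenpf* at 0.153 FPKM, *Ttk* at 0.327 FPKM and *Foxm1* at 0.367 FPKM. These levels are deposited values per length. Other rankings here use CPM, which is not scaled to length: the highest gene of a role, the most abundant markers and the role scores. The order can differ between the scales, as *Ccnf* had a higher mean CPM than *Ccnb2* but was at 7.74 FPKM.

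**Figure D2:**
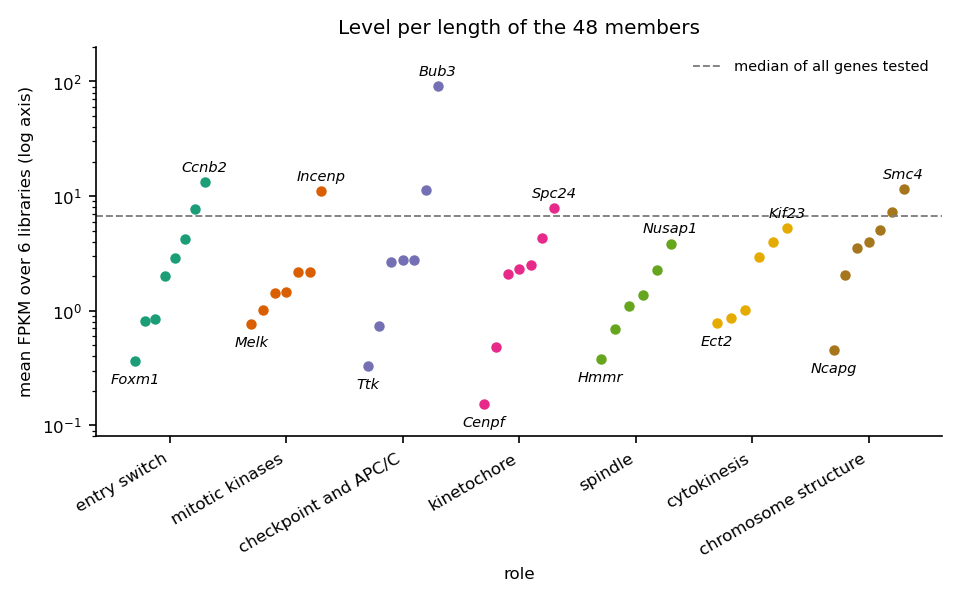
Mean FPKM over the 6 libraries (vertical log axis) of each of the 48 members, by role; each point is a gene, the highest and lowest gene of each role are named, and the dashed line is the median of all genes tested at 6.72 FPKM. *Bub3*, at 91.5 FPKM, stands above all other members.

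The members were also compared at their promoters, since many were lower in the same libraries and are known as targets of a shared promoter element. Of the 48 members, 39 matched a RefSeq window (GRCm38.p6) of 300 bases, 250 before and 50 after the start of the gene. No window was given for *Incenp*, *Tpx2*, *Spc24*, *Foxm1*, *Kif20a*, *Aurkb*, *Ccna2*, *Cdc25c* and *Smc4*. The start given by RefSeq lay within 250 bases of the annotated 5′ end of the gene for 37 of the 39 members. For *Kif4* it lay 328 bases and for *Kif2c* 3867 bases inside the gene. The CHR was searched as TTTGAA and TTCGAA and the CCAAT box as CCAAT, each on both strands. A CHR motif was found in 30 of the 39 windows (76.9%), against 19.4% of the windows of all 27025 genes with a window and 13.7% of those of 9152 genes tested. Within 50 bases of the start it was found in 27 of 39 windows (69.2%), against 5.29% over all genes with a window and 3.37% over genes tested. Without *Kif4* and *Kif2c*, 28 of 37 windows held a CHR motif. CCAAT was found in 29 of 39 windows (74.4%), against 37.9 and 38.9%. These matches describe letters in a window and not a bound site.

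The stretches before the RefSeq start are shown for the members with an unadjusted p under 0.05 other than *Kif2c*, for the landmark genes *Ccnb2*, *Cdk1* and *Top2a*, and for *Plk4*, the member that was higher in every KO library. They run 5′ to 3′ on the strand of the gene, with CHR and CCAAT motifs of either strand in capitals. They lie at chr2:118598091-118598210 on the plus strand (*Bub1b*), chr2:131186828-131186947 on the plus strand (*Cdc25b*), chr2:127133955-127134074 on the minus strand (*Ncaph*), chr9:70421555-70421674 on the minus strand (*Ccnb2*), chr10:69352939-69353032 on the minus strand (*Cdk1*), chr11:99024190-99024309 on the minus strand (*Top2a*) and chr3:40799831-40799950 on the plus strand (*Plk4*). The *Cdk1* stretch ends 26 bases before the RefSeq start, where an annotated exon begins.
Bub1b: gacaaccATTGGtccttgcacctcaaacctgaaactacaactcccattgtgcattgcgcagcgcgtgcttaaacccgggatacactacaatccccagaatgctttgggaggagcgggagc
Cdc25b: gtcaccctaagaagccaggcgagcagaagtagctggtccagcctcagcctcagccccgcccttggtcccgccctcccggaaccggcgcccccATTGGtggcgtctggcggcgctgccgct
Ncaph: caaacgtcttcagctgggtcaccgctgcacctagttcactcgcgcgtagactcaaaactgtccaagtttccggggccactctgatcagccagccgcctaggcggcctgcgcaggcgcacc
Ccnb2: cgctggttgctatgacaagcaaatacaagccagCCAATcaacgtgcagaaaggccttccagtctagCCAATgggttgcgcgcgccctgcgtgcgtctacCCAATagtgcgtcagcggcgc
Cdk1: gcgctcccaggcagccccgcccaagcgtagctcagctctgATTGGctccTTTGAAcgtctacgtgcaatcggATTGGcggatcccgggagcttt
Top2a: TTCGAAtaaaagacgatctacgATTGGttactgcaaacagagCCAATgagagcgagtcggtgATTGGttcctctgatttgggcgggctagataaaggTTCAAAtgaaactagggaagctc
Plk4: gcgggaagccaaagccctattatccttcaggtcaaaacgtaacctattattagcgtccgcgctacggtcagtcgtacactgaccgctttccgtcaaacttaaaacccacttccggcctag
The stretches of *Top2a* and *Cdk1* hold both CHR and CCAAT motifs. The *Ccnb2* stretch holds 3 CCAAT motifs, and the CHR motif nearest to the start lies after it in *Ccnb2*, *Cdc25b* and *Bub1b*. In *Cdk1* the nearest lies 15 bases before the start, past the end of the printed stretch. The stretches of *Ncaph* and *Plk4* hold none of these motifs. Among members tested, 22 of the 27 with a CHR motif in the window were lower in KO (median log2 fold change -0.67), and so were 6 of the 8 without it (median -0.40). The difference between these medians was not tested. The 27 include *Kif2c* and *Kif4*, both lower in KO, whose RefSeq start lay 3867 and 328 bases inside the gene.

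**Figure D3:**
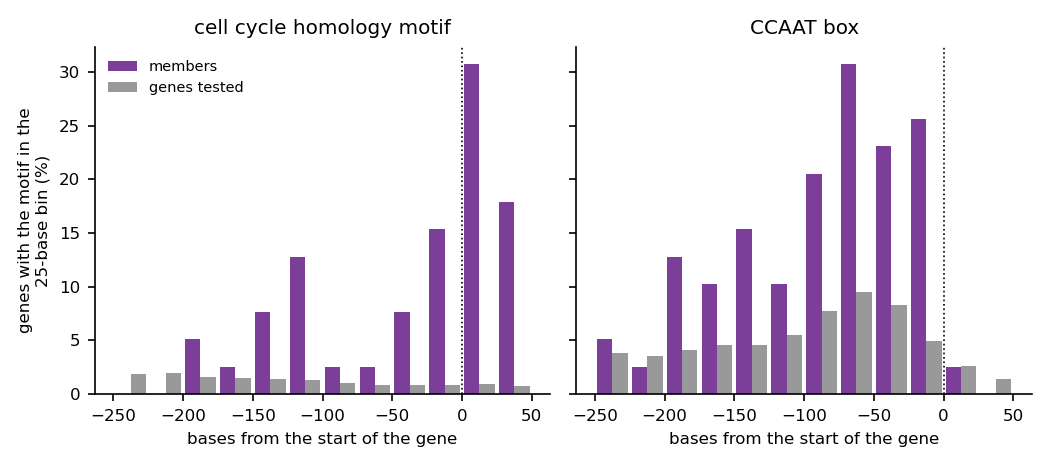
Share of genes with a CHR motif (left) or a CCAAT motif (right) in each 25-base bin (vertical axis, percent), by distance from the start of the gene in bases (horizontal axis, negative before the start), for 39 members and 9152 genes tested. The CHR is most frequent among members in the first 25 bases after the start, at 30.8% against 0.962% of genes tested.

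Among the genes of the entry switch, 5 of 7 tested were lower in KO, with a median log2 fold change of -0.10. *Cdc25b*, which encodes a phosphatase that activates CDK1, was at 53.9, 11.9 and 28.7 CPM in WT and at 7.90, 8.55 and 6.07 CPM in KO. All 3 KO libraries lay close together below the lowest WT library, and the WT libraries themselves spread widely. Its log2 fold change was -2.06 (95% interval -3.37 to -0.76, unadjusted p = 0.0055, adjusted p = 0.47, edgeR). The value was -1.42 without WT replicate 1 and -2.45 without WT replicate 2. *Ccna2*, which encodes cyclin A2, was at 19.5, 15.1 and 18.9 CPM in WT and at 6.89, 3.09 and 13.6 CPM in KO (log2 fold change -1.18, 95% interval -2.59 to 0.23, adjusted p = 0.93, edgeR). The groups did not overlap, although KO replicate 3 came near the WT level. The log2 fold change was -1.83 without KO replicate 3 and -0.8 without KO replicate 2. Exons of *Ccna2* overlap those of *Exosc9* on the opposite strand, which had 1259 counts against 397; the use of strand in counting is not given in the sources used here, so reads of such pairs cannot be told apart.

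The other genes of the switch overlapped between groups. *Ccnb2* was at 40.2, 16.1 and 26.6 CPM in WT and at 8.31, 5.46 and 27.3 CPM in KO, with the first 2 KO libraries below and KO replicate 3 inside the WT range (log2 fold change -1.01, 95% interval -2.44 to 0.42). The value was -2.0 without KO replicate 3, and -0.63 both without KO replicate 2 and without WT replicate 1. *Ccnb1*, which encodes cyclin B1, was at 10.5, 5.53 and 4.33 CPM in WT and at 5.67, 7.83 and 5.46 CPM in KO (log2 fold change -0.10, with the other sign in 2 of 14 alternatives and 0.36 without WT replicate 1). *Cdk1*, which encodes the kinase at the center of the switch, was at 19.3, 25.3 and 18.5 CPM in WT and at 28.6, 14.0 and 21.0 CPM in KO, so that KO libraries held both the highest and the lowest value. Its log2 fold change was 0.01 (95% interval -0.98 to 0.99), with the other sign in 7 of 16 alternatives and -0.26 without KO replicate 1.

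*Ccnf*, which encodes cyclin F, was the gene of this role with the highest CPM. It was at 49.2, 8.73 and 14.8 CPM in WT and at 22.7, 21.1 and 26.5 CPM in KO, with a single high WT library above an otherwise higher KO group. The log2 fold change was -0.05, and in 7 of 16 alternatives it had the other sign, reaching 1.01 without WT replicate 1. *Foxm1*, the transcription factor of the G2/M program, was at 3.90, 0.983 and 3.40 CPM in WT and at 1.42, 0.910 and 9.92 CPM in KO. It was highest in KO replicate 3, and its log2 fold change of 0.57 (95% interval -2.07 to 3.22) was -1.21 without that library and 0.16 without WT replicate 2. The value was only 0.01 with the replicate number as a block, 0.08 with voom and 0.1 with limma on unfiltered log2(FPKM + 1). *Cdc25c*, another CDK1 phosphatase, had too few counts to pass the filter of the main edgeR fit, 0, 19 and 0 in WT and 1, 0 and 37 in KO.

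**Figure D4:**
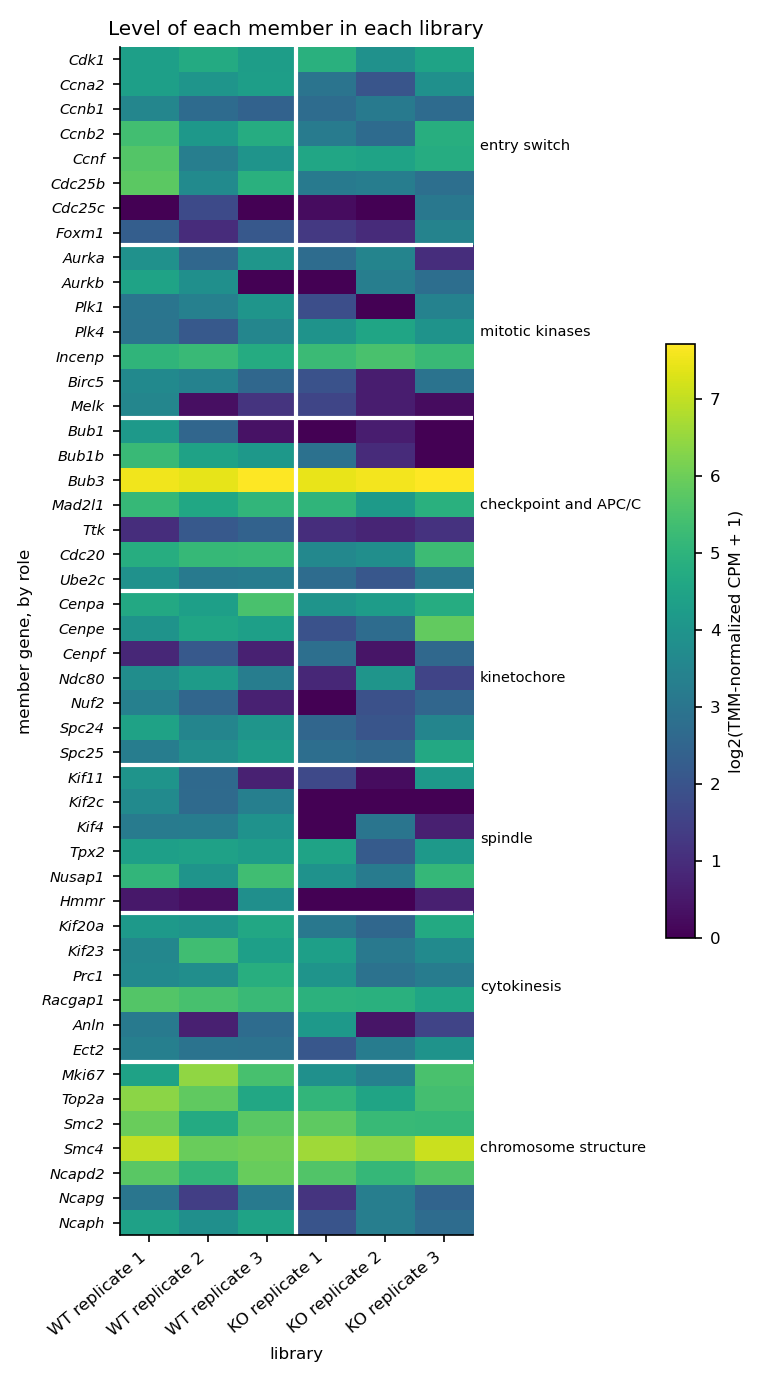
Level of each of the 48 members (rows, by role) in each library (columns) as log2(TMM-normalized CPM + 1), given by color. *Kif2c* has no reads in the KO libraries, *Bub3* is high and even across all 6, and many members are lower in KO replicates 1 and 2 than in KO replicate 3.

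The mitotic kinases and the passenger proteins that guide Aurora B were low in counts, and 4 of 6 tested were lower in KO, with a median log2 fold change of -1.13. *Plk4*, the kinase that starts centriole duplication, went the other way. It was at 6.77, 3.44 and 10.5 CPM in WT and at 14.6, 22.0 and 14.6 CPM in KO. Every KO library was above every WT library, with a log2 fold change of 1.32 (95% interval -0.05 to 2.69, unadjusted p = 0.058, adjusted p = 0.91, edgeR), the largest among members tested. Its direction was the same in all 16 alternatives, between 0.66 and 1.86.

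*Plk1*, a kinase needed from mitotic entry to cytokinesis, was at 6.97, 9.34 and 15.1 CPM in WT and at 2.63, 0 and 9.71 CPM in KO (log2 fold change -1.34, 95% interval -4.02 to 1.33). The value was -2.98 without KO replicate 3 and -0.76 without KO replicate 2. *Aurkb*, the kinase that corrects faulty attachments of chromosomes to the spindle, was at 21.3, 13.4 and 0 CPM in WT and at 0, 8.74 and 5.87 CPM in KO (log2 fold change -1.25, 95% interval -4.51 to 2.01). A library of each group was thus without *Aurkb* reads, and the value was -0.48 without WT replicate 1, -0.67 without KO replicate 1 and -1.98 without KO replicate 2. *Incenp*, its scaffold and the gene of this role with the highest CPM, was at 32.2, 36.6 and 25.7 CPM in WT and at 37.1, 43.9 and 36.0 CPM in KO, with a log2 fold change of 0.31 (95% interval -0.45 to 1.06, and 0.18 without the library labelled WT replicate 3) and overlapping groups. The remaining tested members *Aurka* and *Birc5* had log2 fold changes of -1.01 and -1.39, both with intervals that include 0. *Melk* was not tested, at 51, 2 and 4 counts in WT and 10, 3 and 1 counts in KO.

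Genes of the spindle checkpoint and of the anaphase-promoting complex (APC/C), which the checkpoint holds back until all chromosomes are attached, included genes far apart between groups and genes at the same level. Of 5 tested, 4 were lower in KO, with a median log2 fold change of -0.66, and the role score was 4.26 ± 0.27 in WT and 3.09 ± 0.20 in KO (SD, n = 3), with no overlap between libraries. Scores of the kinase and spindle roles did not overlap either. Those of the entry, kinetochore, cytokinesis and chromosome roles did, and for the kinetochore KO replicate 3, at 3.64, was the highest of all libraries. *Bub1b*, which encodes the checkpoint protein BubR1, was at 36.1, 20.8 and 16.4 CPM in WT and at 6.28, 0.910 and 0 CPM in KO. All KO libraries were far below the lowest WT library, with 31, 5 and 0 counts against 176, 169 and 53, and KO replicate 3 was the lowest. The log2 fold change was -3.34 (95% interval -5.76 to -0.92, unadjusted p = 0.012, adjusted p = 0.62, edgeR), and it was between -5.63, without KO replicate 1, and -2.76, without KO replicate 3, over the fits that leave a sample out. *Bub1*, the related checkpoint kinase, had 83, 39 and 1 counts in WT and 0, 3 and 0 counts in KO. These were too few to pass the filter of the main edgeR fit. Its unadjusted p was under 0.05 with DESeq2 and with edgeR without a filter, but not with limma on unfiltered log2(FPKM + 1).

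*Bub3*, the partner that brings both proteins to the kinetochore, was at 187.0, 170.2 and 208.0 CPM in WT and at 174.0, 188.0 and 207.0 CPM in KO. The libraries of both groups covered the same range, with a log2 fold change of 0.01 (95% interval -0.43 to 0.45) that had the other sign in 3 of 16 alternatives. *Ube2c*, which encodes the ubiquitin-conjugating enzyme of the APC/C, was at 13.9, 7.87 and 8.34 CPM in WT and at 5.67, 3.28 and 7.69 CPM in KO. The groups did not overlap, but KO replicate 3 lay just below WT replicate 2, and the log2 fold change was -0.86 (95% interval -2.45 to 0.74, adjusted p = 0.99, edgeR), or -0.54 without WT replicate 1. On the opposite strand *Ube2c* overlaps the muscle gene *Tnnc2*, which was at 2.26, 2.33 and 7.73 CPM in WT and 0 in KO, and the part of its reads in this difference was not tested. *Cdc20* had a log2 fold change of -0.66 and *Mad2l1* of -0.20, with overlapping groups, and *Cdc20* overlaps *Elovl1*, which had 3753 counts against 848. *Ttk* was not tested, at 5, 28 and 14 counts in WT and 5, 4 and 6 counts in KO.

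At the kinetochore, the structure that ties chromosomes to microtubules, all 7 genes were tested and 5 were lower in KO, with a median log2 fold change of -0.56. *Spc24*, a subunit of the NDC80 complex, was at 20.5, 10.4 and 15.1 CPM in WT and at 4.86, 3.09 and 10.3 CPM in KO. The groups touched without overlap, WT replicate 2 being just above KO replicate 3, and the log2 fold change was -1.33 (95% interval -2.83 to 0.17, unadjusted p = 0.076, adjusted p = 0.93, edgeR). The value was -1.94 without KO replicate 3 and -1.01 without KO replicate 2. *Cenpa*, the histone variant that marks the centromere and the gene of this role with the highest CPM, was at 24.2, 19.2 and 44.5 CPM in WT and at 15.0, 18.0 and 26.3 CPM in KO (log2 fold change -0.56, 95% interval -1.59 to 0.47). Here KO replicates 1 and 2 were below all WT libraries and KO replicate 3 was not, and the value was -0.13 without the library labelled WT replicate 3.

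*Cenpf*, which encodes a large kinetochore protein, had the largest fitted increase of the list after *Plk4*, on very few reads. It was at 0.820, 3.44 and 0.618 CPM in WT and at 6.08, 0.364 and 5.06 CPM in KO (log2 fold change 1.18, 95% interval -1.61 to 3.97). The groups overlapped, and KO replicate 2 was the lowest library of all; the value was 2.36 without WT replicate 2 and 0.69 without KO replicate 1, and only 0.07 with voom and 0.15 with limma on unfiltered log2(FPKM + 1). For the other 4 genes the log2 fold changes ran from -1.11 for *Ndc80* to 0.22 for *Cenpe*, a kinetochore motor whose level in KO replicate 3, at 56.9 CPM, was above all WT libraries while KO replicates 1 and 2, at 2.84 and 5.64 CPM, were below them.

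The spindle genes had the largest difference in role score. All 5 tested were lower, with a median log2 fold change of -0.61, above that of the kinases, and the role score was 3.30 ± 0.37 in WT and 1.86 ± 0.54 in KO (SD, n = 3). *Kif2c* encodes a kinesin that takes microtubules apart at their ends and helps to correct attachments. It was at 11.9, 5.28 and 8.96 CPM in WT, from 58, 43 and 29 counts, and had no read in any KO library. At the depth of the KO libraries 3 counts correspond to between 0.546 and 0.608 CPM, so *Kif2c* was at least 14.8-fold lower against a floor of 3 counts per library. It had the smallest p of all members (unadjusted p = 0.0006, adjusted p = 0.21, edgeR). With DESeq2 it passed the threshold (adjusted p = 0.00018), and over all 13 alternatives that tested it the adjusted p ranged from 0.00018 to 0.59.

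*Kif4*, a motor that organizes the middle of the spindle, was at 8.20, 8.48 and 14.2 CPM in WT and at 0, 6.92 and 0.607 CPM in KO. The groups did not overlap, with KO replicate 2 close to the WT range, and the log2 fold change was -2.01 (95% interval -4.86 to 0.83, adjusted p = 0.99, edgeR). The value was -4.97 without KO replicate 2, -1.43 without KO replicate 1 and -1.24 without both samples numbered 3. Exons of *Kif4* overlap *Pdzd11* on the opposite strand, which had 2019 counts against 196. *Nusap1*, which bundles microtubules around chromosomes and had the highest CPM of the role, was at 32.4, 14.9 and 39.3 CPM in WT and at 14.2, 8.19 and 34.2 CPM in KO (log2 fold change -0.61, 95% interval -1.92 to 0.71). KO replicates 1 and 2 were below the WT libraries and KO replicate 3 was inside their range. The value was -1.36 without KO replicate 3, -0.24 without KO replicate 2, -0.93 without WT replicate 2 and -0.32 without the library labelled WT replicate 3. *Nusap1* overlaps *Oip5*, which had 237 counts against 690. *Tpx2* and *Kif11*, the latter the motor that pushes the spindle poles apart, had log2 fold changes of -0.48 and -0.12. *Hmmr* was not tested, at 2, 2 and 43 counts in WT and 0, 0 and 3 counts in KO.

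**Figure D5:**
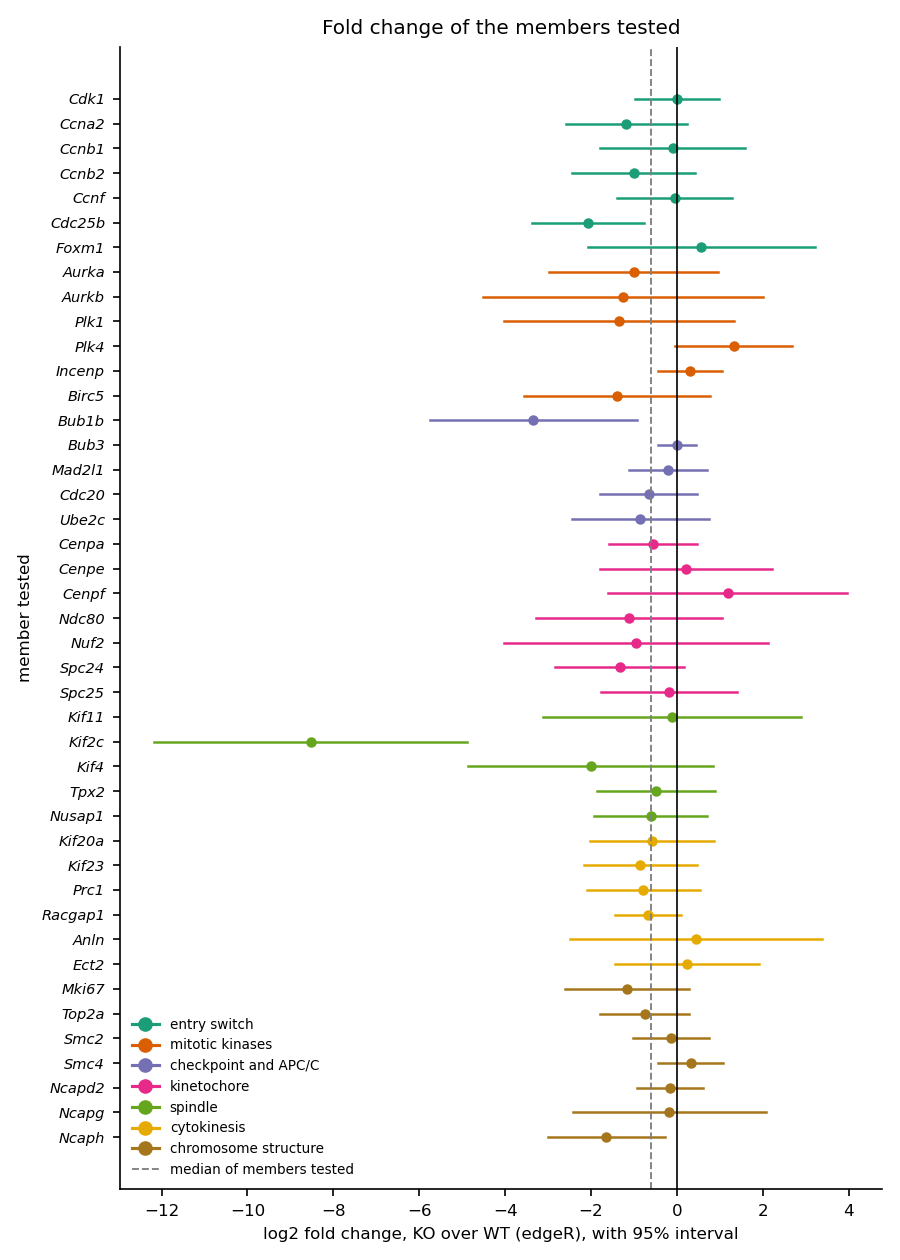
log2 fold change of KO over WT (horizontal axis) with its 95% interval for each of the 43 members tested with edgeR, colored by role; the solid line is at 0 and the dashed line at the members' median of -0.61. The intervals of *Cdc25b*, *Bub1b*, *Kif2c* and *Ncaph* do not reach 0; the fitted value of *Kif2c*, which had no reads in KO, depends on the prior count.

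Cytokinesis genes act on the cleavage furrow and the midbody, and 4 of 6 were lower in KO, with a median log2 fold change of -0.63. *Racgap1*, a subunit of centralspindlin and the gene of this role with the highest CPM, was at 48.8, 43.6 and 36.2 CPM in WT and at 29.8, 28.8 and 22.3 CPM in KO. The libraries of each group lay close together without overlap, and KO replicate 3 was the lowest. The log2 fold change was -0.67 (95% interval -1.44 to 0.09, unadjusted p = 0.080, adjusted p = 0.93, edgeR), between -0.78 and -0.46 in all 16 alternatives. The log2 fold changes of the other 5 genes ran from -0.85 for *Kif23*, the other subunit of centralspindlin, to 0.45 for *Anln*, which encodes the scaffold protein anillin, all with overlapping groups. Of these, *Kif20a* overlaps *Cdc23*, with 3885 counts against 471, and *Prc1* overlaps *Rccd1*, with 536 counts against 401.

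Genes of chromosome structure had the highest score of all roles, 5.03 ± 0.26 in WT and 4.54 ± 0.28 in KO (SD, n = 3), and 6 of 7 were lower in KO, with a median log2 fold change of -0.18. *Ncaph*, the subunit that closes the ring of condensin I, was at 20.3, 13.3 and 21.3 CPM in WT and at 3.04, 8.74 and 5.67 CPM in KO. All KO libraries were below the lowest WT library, with a log2 fold change of -1.65 (95% interval -3.01 to -0.28, unadjusted p = 0.023, adjusted p = 0.76, edgeR). *Smc4*, the core subunit of both condensins, did not share this difference. It was at 126.0, 60.5 and 64.9 CPM in WT and at 97.0, 81.4 and 135.0 CPM in KO, with overlapping groups and a log2 fold change of 0.32 (95% interval -0.44 to 1.08). The value was 0.74 without WT replicate 1, 0.13 without WT replicate 2, 0.17 without the library labelled WT replicate 3, 0.09 without KO replicate 3 and -0.05 without both samples numbered 3. The condensin genes *Smc2*, *Ncapd2* and *Ncapg* had log2 fold changes of -0.14, -0.17 and -0.18; *Ncapg* overlaps *Lcorl*, which had 703 counts against 153.

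*Mki67*, the proliferation marker that coats mitotic chromosomes, was at 20.7, 85.9 and 43.0 CPM in WT and at 13.6, 9.28 and 44.3 CPM in KO. KO replicates 1 and 2 were below all WT libraries, and KO replicate 3 was above 2 of them, so the groups overlapped (log2 fold change -1.16, 95% interval -2.61 to 0.29, adjusted p = 0.95, edgeR). *Top2a*, the topoisomerase that untangles sister chromatids, was at 81.6, 55.7 and 23.5 CPM in WT and at 33.0, 21.5 and 41.1 CPM in KO, with the library labelled WT replicate 3 inside the KO range (log2 fold change -0.75, 95% interval -1.79 to 0.28, adjusted p = 0.98, edgeR). The value of *Mki67* was -0.51 without WT replicate 2 and -2.12 without KO replicate 3, and that of *Top2a* was -0.32 without WT replicate 1. For both genes the direction was the same in all 16 alternatives.

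For other genes of the cell cycle, listed by name, the medians were nearer to 0 than that of the members, with quartiles that overlap; the difference between lists was not tested. No gene of the 5 lists passed the threshold with edgeR. Of 66 tested genes with other roles in mitosis and G2/M, 40 were lower and 26 higher, with a median log2 fold change of -0.23 (quartiles -0.83 and 0.34), and 2 were lower at an unadjusted p under 0.05, where 2.77% of all genes tested were. These were *Pbk*, a mitotic kinase, at 24.2, 11.2 and 32.1 CPM in WT and 10.3, 4.55 and 3.84 CPM in KO (log2 fold change -1.84, adjusted p = 0.68, edgeR), and *Espl1*, which encodes separase, at 55.6, 14.0 and 12.1 CPM in WT and 12.2, 5.64 and 7.69 CPM in KO (log2 fold change -1.68, adjusted p = 0.78, edgeR). All KO libraries were below the WT libraries for *Pbk*, and for *Espl1* WT replicate 3 and KO replicate 1 stood side by side. Of the 66 genes, 5 (7.58%) were lower in every KO library and 0 were higher. Over all genes tested the shares were 6.15 and 6.25%.

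Genes of DNA replication and S phase had a median near 0. Of 54 tested, 30 were lower and 24 higher, with a median log2 fold change of -0.05. It was 0.09 without WT replicate 1, -0.15 without WT replicate 2, -0.09 without the library labelled WT replicate 3, 0.00 without KO replicate 1 and -0.14 without KO replicate 3. Without both samples numbered 3 it was -0.22, the lowest of the alternatives. *Chaf1b*, a subunit of the chromatin assembly factor, was at 226.0, 163.0 and 164.0 CPM in WT and 124.0, 99.7 and 129.5 CPM in KO (log2 fold change -0.65, adjusted p = 0.71, edgeR), lower in every KO library. Of the 54 genes, 4 (7.41%) were lower in every KO library and 1 was higher. Over all genes tested the shares were 6.15 and 6.25%. *Rfc2*, a subunit of the clamp loader, was at 219.0, 169.0 and 248.0 CPM in WT and 241.0, 330.5 and 299.9 CPM in KO, with overlapping groups (log2 fold change 0.46, adjusted p = 0.92, edgeR). The score of these genes was 5.43 ± 0.27 in WT and 5.36 ± 0.12 in KO (SD, n = 3).

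The lists that hold the brakes and the regulators of the program had medians above 0. Of 18 tested genes of the G2/M checkpoint brakes, 12 were higher in KO, with a median log2 fold change of 0.22. It was 0.42 without WT replicate 2 and 0.35 without KO replicate 1. *Btg2*, an antiproliferative gene induced by p53, was at 7.18, 13.9 and 13 CPM in WT and 20.7, 25.8 and 66.6 CPM in KO, higher in every KO library and highest in KO replicate 3 (log2 fold change 1.73, unadjusted p = 0.0099, adjusted p = 0.58, edgeR). *Gadd45b*, a stress-induced gene, was at 4.51, 3.44 and 9.58 CPM in WT and 16.6, 10 and 16 CPM in KO (log2 fold change 1.29, adjusted p = 0.93, edgeR). For *Gadd45b* too the lowest KO library was above the highest WT library. This was the case for 2 of the 18 genes of the list and for 6.25% of all genes tested.

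Of 21 tested regulators of the DREAM, MuvB and E2F group, 15 were higher, with a median of 0.12, which was 0.22 without WT replicate 2, 0.04 without KO replicate 1 and 0.03 without KO replicate 2. *Rbl2*, which encodes the p130 pocket protein of DREAM, was at 240.3, 226.0 and 120.2 CPM in WT and 353.0, 318.0 and 256.0 CPM in KO, higher in every KO library (log2 fold change 0.66, adjusted p = 0.81, edgeR). Of the 21 genes, 1 was higher in every KO library, as were 6.25% of all genes tested. *Rbl1*, which encodes the related p107, was at 82.0, 104.0 and 59.3 CPM in WT and 67.9, 142.0 and 112.0 CPM in KO, with overlapping groups (log2 fold change 0.39, adjusted p = 0.99, edgeR). Of 23 genes of the APC/C and of mitotic exit, 15 were higher, with a median of 0.11. It was 0.18 without WT replicate 2, 0.03 without the library labelled WT replicate 3, 0.06 without KO replicate 1, and 0.02 both without KO replicate 2 and without KO replicate 3. *Cdc16*, an APC/C subunit, was at 106.0, 105.0 and 116.0 CPM in WT and 156.0, 134.0 and 151.0 CPM in KO (log2 fold change 0.43, adjusted p = 0.92, edgeR). *Anapc10*, another subunit, was at 13.9, 15.7 and 13.3 CPM in WT and 21.5, 28.4 and 20.4 CPM in KO (log2 fold change 0.71, adjusted p = 0.97, edgeR), and for both every KO library was above every WT library. This held for 2 of the 23 genes of this list and for 6.25% of all genes tested.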

How the data were processed

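The authors deposited raw read counts per gene and FPKM values, which match those counts once scaled by the library sum and by a length that is constant for each gene (differences between libraries of at most 0.00177%). The submitters' processing notes name TopHat, HTSeq and mm10, with no versions; annotation and strand setting are not given in the sources used here. Groups and replicate numbers came from the sample titles. The members and lists were chosen with earlier results of these data known. Tests were run on the counts with edgeR 4.0.16 under R 4.3.3 (TMM, filterByExpr with default settings, robust quasi-likelihood test, Benjamini-Hochberg adjustment over all genes tested, threshold 0.05). The score is the mean of log2(CPM + 1) over all 48 members, with no test. A signal of 3 counts was the smallest treated as detected; the floor covers counting error only. Samples of a group differed by more than sampling noise (chi-square per degree of freedom from 24.4 to 50). Coordinates of genes and exon overlaps came from GENCODE M21 (GRCm38), which held 34344 of the 34745 identifiers; for 59 symbols held by several identifiers, that with the largest count sum was kept.

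Genes named are 8 landmarks, the member of each role with the highest mean CPM, members with an unadjusted p under 0.05 or groups that did not overlap, the 2 largest and 2 smallest fitted log2 fold changes, and the 2 smallest p-values of each other list. Members that did not pass the filter of the main edgeR fit are called not tested and are given by their counts. Some of them entered other fits: DESeq2 tested 47 members and edgeR without a filter all 48. Alternatives were DESeq2 1.42.0, upper-quartile scaling, no filter, at least 10 counts in every sample, the replicate number as a block, limma 3.58.1 on log2(FPKM + 1) and log2(FPKM + 0.1), voom, and each sample left out. The procedure was also run on simulated data, from which no result is given here. Markers of multipotent progenitors, megakaryocyte-erythroid progenitors and stromal cells were also summed: means over WT and KO were 748.0 and 886.0 CPM, 1629 and 1487 CPM, and 162.0 and 180.1 CPM. Their means of log2(CPM + 1) were 4.22 and 3.93, 3.31 and 3.0, and 2.48 and 2.09. For the first and the last list the sum was thus higher in KO and the mean of logs lower.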

Additional observations from a re-analysis of the deposited data

How the results depend on the processing

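The score difference was negative in all 23 alternatives and the members' median log2 fold change in all 17. Both include leaving out the 8 members that overlap another gene with more than 10% of their counts, and the score was also taken without each role in turn; these were added after seeing the data. The count of genes past the threshold, 9 of all genes tested, was 149 with DESeq2 (59 higher, 90 lower), 15 with limma on log2(FPKM + 1) and a mean FPKM of at least 1, and 0 with voom and sample quality weights; leaving out each sample in turn gave between 5 and 11. The count of members past it was 1 with DESeq2 and 0 in the other 15 alternatives. The median was -1.01 without both samples numbered 3 and between -1.16 and -0.48 with each sample left out. The score difference was -0.39 as the log2 of the summed CPM, -0.44 on log2(FPKM + 1) and -1.04 with a pseudocount of 0.1. The cause of these changes was not tested.

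Blocking on replicate number left 5 genes past the threshold, and the members' median was -0.76. The deviations of same-numbered samples correlated at 0.163, 0.031 and 0.162 across genes. Every sample correlated best with its own number apart from WT replicate 2, at 0.032 with KO replicate 1. Both samples numbered 3 also share the *Xist* and Y-linked pattern. The labels do not say what the numbers mark, so the main fit did not take them as pairs. Whether same-numbered samples share a batch or litter was not tested. The score differences within numbers were -1.13, -0.83 and -0.24.

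For 25 named members, 362 of 384 alternative values kept their direction and side of the threshold, and 1 was past it in the same direction. The other 21 changed sign. *Cdk1* was at -0.01 with upper-quartile scaling, -0.03 with the block, -0.19 with voom, -0.06 without both samples numbered 3, and from -0.26 to 0.24 with each sample left out. *Ccnb1* was at 0.01 with voom and from -0.33 to 0.36, and *Foxm1* from -1.21 to 1.05, with each sample left out. *Ccnf* was at 0.34 with the block, at 0.28 on log2(FPKM + 1) both filtered and unfiltered, at 0.37 on log2(FPKM + 0.1), at 0.47 with voom, and from -0.45 to 1.01 with each sample left out. *Bub3* was at -0.00 with upper-quartile scaling and from -0.06 to 0.09 with each sample left out, and *Smc4* at -0.05 without both samples numbered 3. Depth limits what can be seen: 3 counts are 0.369 to 0.927 CPM, and between 2 and 10 of the 48 members per library were at or below them.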
